A study of Zea mays with 6 samples.

Results

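The tapetum and male-sterility genes of maize (Zea mays) described here are 10 genes, taken by identifier from a fixed member list out of 31470 genes in the expression tables. The symbols are those of the member list: ms23, ms32, ms9 and ms7 are regulators, ms26, apv1, ms33, ms30 and ms45 are enzymes or enzyme-like proteins, and ms44 is a small secreted protein. All 10 were listed in all 6 libraries. The expression files give identifiers and no symbols, and RefSeq names of a newer maize assembly (Zm-B73-REFERENCE-NAM-5.0) held 5 of the 10 symbols (ms7, ms23, ms32, ms26 and ms45), all 5 on the chromosome that the files give.

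RNA of mature anthers of the inbred line B104 was sequenced from 3 libraries of plants with the genotype ZmCOI2a-/-,ZmCOI2b-/-, called the mutant here, and from 3 wild-type libraries. COI proteins are F-box receptors for the hormone jasmonate, and the series concerns anther opening and pollen fertility. The labels do not describe the mutant alleles or say whether replicates were separate plants, so the p-values cover the spread between these libraries, part of which may be technical. Symbols of ZmCOI2a and ZmCOI2b are not tied to identifiers in the files, so the loss of either gene was not analysed here. The 6 libraries held 16845656 to 17759978 gene reads. Along the leading principal component, which took 52.8% of the variance, the genotypes separated, and mutant replicate 3 came nearest to wild type of the mutant libraries (-21.9, against -42.9 and -46.3).

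The tapetum is the innermost layer of the anther wall. It nourishes the developing pollen, secretes the lipids and polymers of the pollen wall and of the anther surface, and then degrades before the anther matures. In maize, ms23 and ms32 encode bHLH transcription factors that act early in tapetal development, ms9 encodes an R2R3-MYB factor and ms7 a PHD-finger factor that acts later. Genes that act downstream of such factors encode cytochrome P450 hydroxylases of fatty acids, an acyltransferase and a lipase, and recessive mutations in most of these genes leave the plant without functional pollen. Only mature anthers were sequenced, so the level before tapetal degradation was not measured, and what follows gives what is left at maturity.

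Little RNA of these genes was left in mature anthers, but nearly all of them were still read. The deposited unit is FPKM, a read level corrected for gene length and for library depth, and whole reads were recovered from it. Together the 10 genes took 543, 444 and 484 reads in mutant anthers, against 598, 568 and 589 reads in wild-type anthers. Reads were present in every library for 9 of the 10 genes, and the exception was ms7. The share of all listed genes with reads in every library was not computed. Of the 10, 4 genes (ms9, ms45, ms23 and ms26) averaged at least 1 FPKM in each genotype, and 5 genes (apv1, ms33, ms32, ms30 and ms7) stayed below 1 FPKM in every library. Within single libraries 4 or 5 of the 10 reached 1 FPKM, beside 56.2% to 62.3% of all listed genes. That is a small gap for so few genes. The median of the 10 mean levels was 0.526 FPKM, and the median over all listed genes was 1.99 FPKM. Only 3 of the 10 genes (ms9, ms45 and ms23) lay above the median of the listed genes. In the library where a member stood highest, wild-type replicate 1, 7962 listed genes were still above it.

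**Figure D1:**
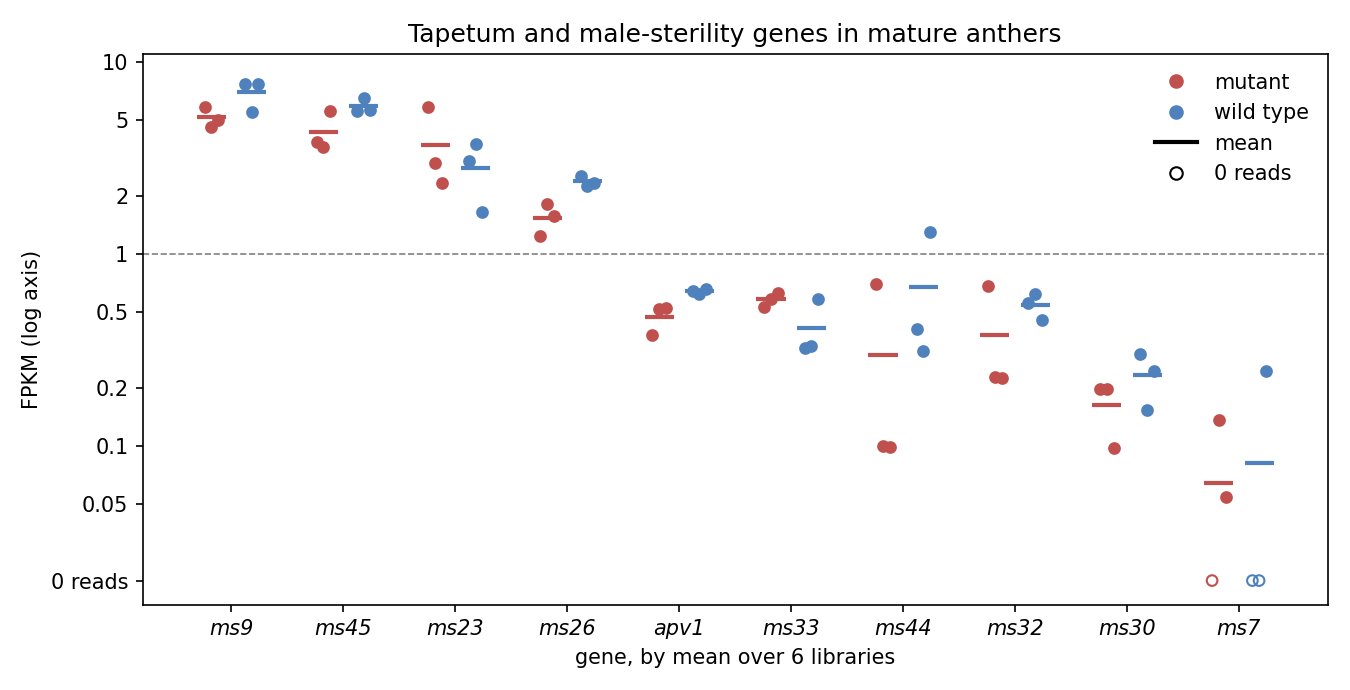
FPKM of the 10 genes in each library on a log axis, with mutant libraries left of wild-type libraries, a horizontal bar at each group mean, and open circles for libraries with 0 reads. The dashed line marks 1 FPKM, and only ms9, ms45, ms23 and ms26 have all 6 libraries above it.

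The order of levels was similar in both genotypes at the top and at the bottom. In the mutant it ran ms9, ms45, ms23, ms26, ms33, apv1, ms32, ms44, ms30 and ms7. In wild type it ran ms9, ms45, ms23, ms26, ms44, apv1, ms32, ms33, ms30 and ms7. In the mutant the library ranges of ms9, ms45 and ms23 overlapped from neighbour to neighbour, as did those of apv1, ms32, ms44, ms30 and ms7. The range of ms33 did not overlap that of its neighbour apv1, but lay within those of ms32 and ms44. The places of ms33 and of the genes within those runs are thus not settled by 3 libraries. In wild type the overlapping neighbours were ms9 with ms45, ms23 with ms26, ms44 with apv1, ms32 with ms33, and ms30 with ms7. The wild-type range of ms44 also overlapped those of ms32 and ms33. Within each of the 6 libraries, ms26 had more FPKM than every gene placed below it.

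**Figure D2:**
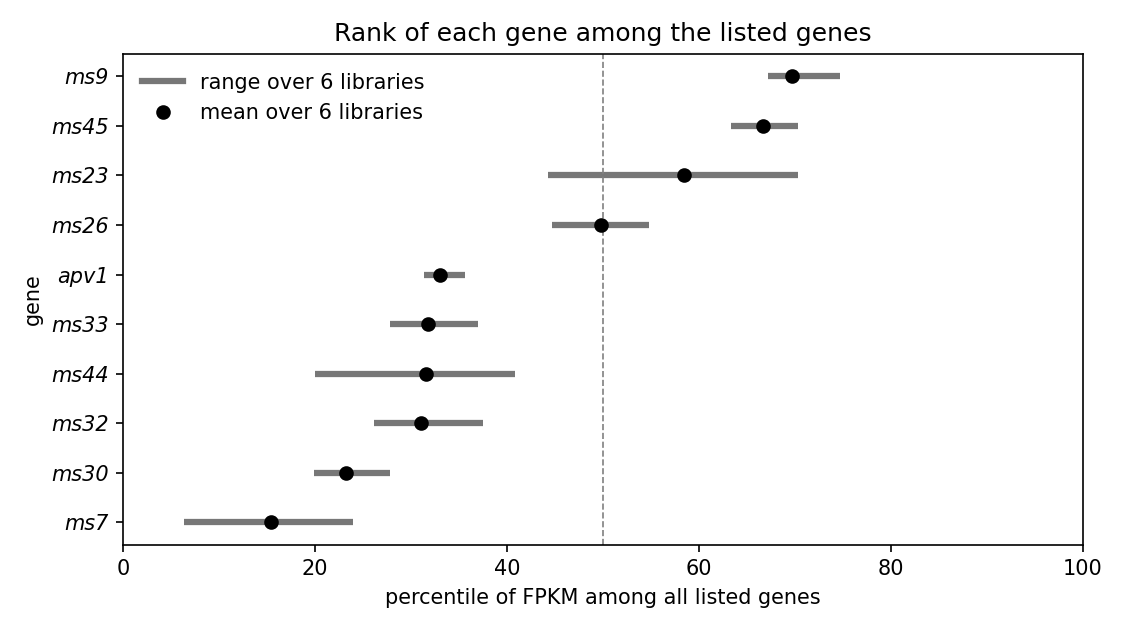
Percentile of each gene's FPKM among the 31470 listed genes. The grey bar spans the 6 libraries, and the point is the percentile of the mean FPKM over libraries. The 4 genes at the top have points near or above the 50th percentile, while the points of the others lie at 33.0 or less.

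Among the regulators, ms9 had the highest level and ms7 the lowest. The MYB gene ms9 (Zm00001d030678, B73 RefGen_v4, chromosome 1, 152667851 to 152669369, minus strand) had 5.83, 4.59 and 5.01 FPKM in mutant anthers, against 7.72, 5.50 and 7.69 FPKM in wild-type anthers. These are 136, 107 and 118 reads in mutant anthers, against 177, 123 and 180 reads in wild-type anthers. Mutant replicate 1 lay above wild-type replicate 2, so the genotypes overlapped. Averaged over all 6 libraries, ms9 stood at the 69.8th percentile of the listed genes.

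The bHLH gene ms23 (Zm00001d008174, chromosome 8, 256295 to 258840, plus strand) had 5.81, 2.96 and 2.34 FPKM in mutant anthers, against 3.04, 3.75 and 1.66 FPKM in wild-type anthers. One mutant library, replicate 1, held 175 reads, while the other 5 libraries held between 50 and 108. The genotypes overlapped, and the spread within the mutant (3.70 ± 1.85 FPKM, SD, n = 3) was wider than the distance to the wild-type mean (2.82 ± 1.06 FPKM, SD, n = 3). Its rank moved more than that of any other member, between the 44.3rd and the 70.3rd percentile.

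The second bHLH gene, ms32 (Zm00001d006564, chromosome 2, 211024993 to 211027729, plus strand), had 0.686, 0.229 and 0.226 FPKM in mutant anthers, against 0.558, 0.620 and 0.456 FPKM in wild-type anthers. These values rest on 15, 5 and 5 reads in mutant anthers, against 12, 13 and 10 reads in wild-type anthers. Mutant replicate 1 was again the highest mutant library, here above every wild-type library, while the other mutant libraries were below every wild-type library. Per counted length, ms32 was thus well below its fellow bHLH gene ms23 in every library.

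The PHD-finger gene ms7 (Zm00001d020680, chromosome 7, 127860533 to 127863145, plus strand) was at the edge of detection. It had 0, 5 and 2 reads in mutant anthers, against 0, 0 and 9 reads in wild-type anthers, which are 0, 0.138 and 0.0545 FPKM in mutant anthers, against 0, 0 and 0.247 FPKM in wild-type anthers. A count of 0 allows up to 3 reads, here 0.0825 FPKM in mutant replicate 1, 0.08395 FPKM in wild-type replicate 1 and 0.0861 FPKM in wild-type replicate 2. The summed reads gave a mutant over wild-type ratio of 0.761 with a 95% counting interval (exact binomial) of 0.241 to 2.30, so a difference of the order of 2-fold in either direction was not detectable at this depth. The ratio was 0.325 without mutant replicate 2, 0.507 and 0.513 without wild-type replicates 1 and 2, 1.14 without mutant replicate 1, and 1.07 with median-of-ratios scaling. It has no value without wild-type replicate 3, the only wild-type library with reads of ms7. Such intervals and floors cover counting error only.

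Of the enzymes of lipid metabolism, the cytochrome P450 gene ms26 was the best read. The ms26 product belongs to the CYP704B family of fatty acid hydroxylases, which make precursors of sporopollenin. The gene (Zm00001d027837, chromosome 1, 14702216 to 14704540, minus strand) had 1.24, 1.83 and 1.57 FPKM in mutant anthers, against 2.55, 2.27 and 2.35 FPKM in wild-type anthers. All 3 mutant libraries were below all 3 wild-type libraries (1.55 ± 0.297 FPKM in mutant anthers and 2.39 ± 0.14 FPKM in wild-type anthers, SD, n = 3 each), and in reads these are 42, 62 and 54 in mutant anthers, against 85, 74 and 80 in wild-type anthers.

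The other P450 gene, apv1 (Zm00001d024712, chromosome 10, 84554486 to 84559654, minus strand), encodes a CYP703A2 enzyme that hydroxylates fatty acids for the anther cuticle and pollen wall. It had 0.378, 0.516 and 0.521 FPKM in mutant anthers, against 0.641, 0.621 and 0.662 FPKM in wild-type anthers, again with no overlap between genotypes. Its reads, 33, 45 and 46 in mutant anthers, against 55, 52 and 58 in wild-type anthers, were not far below those of ms26. The reads of apv1 were divided by a counted length of 4969 bases, 96.1% of the gene's span, while those of ms26 were divided by 1931 bases. The lower FPKM of apv1 thus depends in large part on the length of its gene model.

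The acyltransferase gene ms33 (Zm00001d007714, chromosome 2, 238013082 to 238015359, plus strand) encodes a glycerol-3-phosphate acyltransferase for anther lipids. It had 0.530, 0.584 and 0.629 FPKM in mutant anthers, against 0.323, 0.332 and 0.581 FPKM in wild-type anthers, from 20, 22 and 24 reads in mutant anthers, against 12, 12 and 22 reads in wild-type anthers. With ms23 it was the only member whose mutant mean lay above its wild-type mean, and wild-type replicate 3 lay among the mutant libraries.

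The lipase gene ms30 (Zm00001d052403, chromosome 4, 189183505 to 189185481, minus strand), of the GDSL class, had 4, 4 and 2 reads in mutant anthers, against 6, 3 and 5 reads in wild-type anthers. Its level was 0.198, 0.198 and 0.0980 FPKM in mutant anthers, against 0.302, 0.155 and 0.247 FPKM in wild-type anthers. The genotypes overlapped, and the ratio of summed reads was 0.699 with a 95% counting interval of 0.278 to 1.69.

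The ms45 gene encodes a strictosidine synthase-like protein of the tapetum that is needed for the pollen wall. It lies on chromosome 9 (Zm00001d047859, 143633531 to 143636108, plus strand) and had 3.85, 3.61 and 5.53 FPKM in mutant anthers, against 5.54, 6.52 and 5.60 FPKM in wild-type anthers. These are 111, 104 and 161 reads in mutant anthers, against 157, 180 and 162 reads in wild-type anthers. The FPKM ranges did not overlap, but mutant replicate 3 and wild-type replicate 1 nearly met, and in reads, before division by the library totals, mutant replicate 3 exceeded wild-type replicate 1.

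The ms44 gene, known from a dominant male-sterile allele, encodes a small secreted protein related to lipid transfer proteins (Zm00001d052736, chromosome 4, 199343999 to 199344667, minus strand). It had 7, 1 and 1 reads in mutant anthers, against 4, 3 and 13 reads in wild-type anthers, and 1 read of this short gene was worth between 0.0991 and 0.105 FPKM. Its levels were 0.701, 0.1003 and 0.0991 FPKM in mutant anthers, against 0.408, 0.314 and 1.298 FPKM in wild-type anthers, so a single library in each genotype carried most of the reads. The ratio of summed reads was 0.440 with a 95% counting interval of 0.177 to 1.01, and it was 0.147 with mutant replicate 1 left out and 0.829 with wild-type replicate 3 left out. It was the only member that overlapped another listed gene, Zm00001d052735 on the opposite strand, by 29 bases. That gene had 672, 693 and 727 reads in mutant anthers, against 765, 985 and 1178 reads in wild-type anthers, and with no stated strand setting the source of the few ms44 reads in the shared bases cannot be told apart.

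No member was called different between the genotypes. Limma on log2(FPKM + 1) tested the 18984 genes with at least 1 FPKM in at least 3 libraries, and 6.65% of them were called at an adjusted p under 0.05. Of the 4 members that passed this filter, 0 were called, and 1 (ms26) had an unadjusted p under 0.05. Because 6 members are too low for that filter, limma-voom was also run on recovered reads of 21990 genes with at least 10 reads in at least 3 libraries, a choice made after the data had been seen. It called 7.45% of genes, but 0 of the 7 members that could be tested, and again ms26 alone had an unadjusted p under 0.05. With no filter, limma on FPKM called 0.928% of all listed genes and 0 of the 10 members, and limma-voom with no filter called 4.39% of all genes and 0 of the 10. With call shares this low, 0 among 4, 7 or 10 genes is near the background and is no result about the members. In bulk anthers, fewer cells of a type and less RNA per cell cannot be told apart.

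With FPKM as deposited, and with library totals as recovered from it, the ms26 difference was nearest to a call. On the log2(FPKM + 1) scale, which understates changes of low genes, its log2 fold change, mutant over wild type, was -0.42 (95% interval -0.78 to -0.06, limma adjusted p = 0.130). With recovered reads it was -0.64 (-1.23 to -0.05, limma-voom adjusted p = 0.143). The median gene in these fits was at -0.20 and -0.27, so ms26 stood 0.22 and 0.37 below the bulk of genes. Median-of-ratios scaling, which moves the median gene to 0.01, put the read-based value of ms26 at -0.36 (-0.96 to 0.24, limma-voom adjusted p = 0.445). Under that scaling 5.56% of all genes tested were called, and 0 of the 7 members. With the recovered totals, the read-based interval of ms26 took in 0 with the replicate block (-1.39 to 0.12). It also took in 0 without mutant replicate 1 (-1.18 to 0.20) or 3 (-1.38 to 0.06). The same held without wild-type replicate 1 (-1.31 to 0.12) or 2 (-1.38 to 0.03). It left out 0 without mutant replicate 2 (-1.47 to -0.07) or wild-type replicate 3 (-1.29 to -0.01).

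The abundant members ms9 and ms45 had log2 fold changes of -0.37 (95% interval -0.79 to 0.06, limma adjusted p = 0.229) and -0.38 (-0.81 to 0.05, adjusted p = 0.217). From reads the values were -0.43 (-0.95 to 0.09) for ms9 and -0.46 (-0.99 to 0.06) for ms45. The lower ends lie close to -1, which is a 2-fold difference, and with the replicate block they pass it, at -1.06 for ms9 and -1.11 for ms45. They also pass it without mutant replicate 1 (-1.17 and -1.04) or 3 (-1.04 and -1.21). For ms45 so do the lower ends without wild-type replicate 1 (-1.14) or 3 (-1.06). The interval left out 0 for ms9 without wild-type replicate 2 (-1.14 to -0.04, limma-voom adjusted p = 0.172). For ms45 it did so without mutant replicate 3 (-1.21 to -0.09, limma-voom adjusted p = 0.136). With median-of-ratios scaling these intervals were -0.63 to 0.34 for ms9 and -0.68 to 0.32 for ms45. The log2 fold change of ms23 was 0.27 (-0.45 to 0.996, limma adjusted p = 0.589), and it was -0.03 without mutant replicate 1, the library with the high ms23 reads, and 0.03 without wild-type replicate 3.

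The members apv1, ms33 and ms32 lay below the FPKM filter and were compared from reads. The log2 fold change of apv1 was -0.45 (95% interval -1.08 to 0.17, limma-voom adjusted p = 0.303), close to those of ms9 and ms45. That of ms33 was 0.53 (-0.37 to 1.43, limma-voom adjusted p = 0.402) with the recovered totals and 0.79 (-0.07 to 1.65, limma-voom adjusted p = 0.244) once scaled by median of ratios. That of ms32 was -0.67 (-1.90 to 0.56, limma-voom adjusted p = 0.436), and without mutant replicate 1 it was -1.17 (limma-voom adjusted p = 0.289). The intervals of all 3 hold differences of more than 2-fold, as do the read-based intervals of ms26 and of ms23 (-0.54 to 1.27), so none of these genes is shown to be alike in both genotypes.

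**Figure D3:**
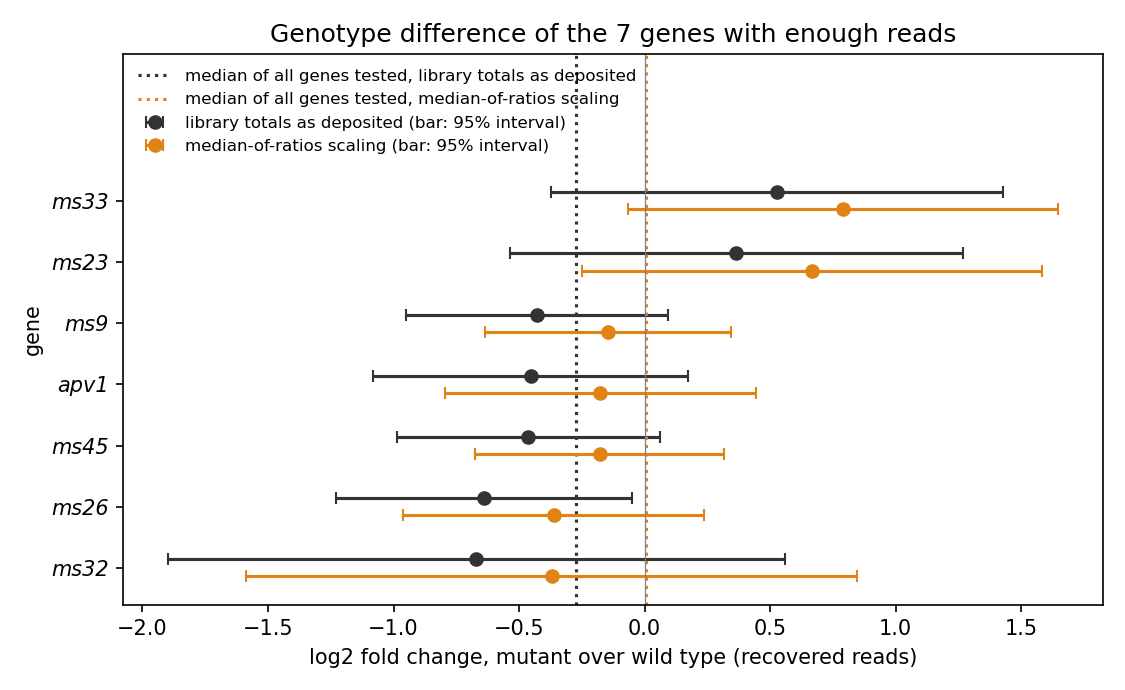
Log2 fold change, mutant over wild type, of the 7 genes with at least 10 reads in at least 3 libraries, from limma-voom on recovered reads, with 95% intervals. Black points use the library totals recovered from the deposited FPKM (labelled as deposited) and orange points median-of-ratios scaling. Dotted lines mark the median of all 21990 genes under each. The only interval that leaves out 0 is that of ms26 with the recovered totals (-1.23 to -0.05).

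Most members had lower values in the mutant, as did most genes under this scaling. Of the 7 members tested from reads, 5 had a negative log2 fold change, beside 71.7% of all genes tested, and the members' median was -0.45 against -0.27 for all genes. With median-of-ratios scaling 5 of 7 were negative, beside 49.5% of all genes, with medians of -0.18 and 0.01. For ms26, apv1 and ms45 every mutant library was below every wild-type library. Such a separation was found in 23.0% of all listed genes, and 3 of 10 is close to that share. With median-of-ratios or upper-quartile scaling, 0 of the 10 were separated downward (12.0% and 13.9% of all listed genes). Under both of those scalings 1 member, ms33, was separated upward (12.4% and 10.5% of all listed genes), and with FPKM as deposited 0 members were (5.76%). Each exact permutation test of 3 against 3 libraries can go no lower than p = 0.1, and ms26, apv1 and ms45 reached that value.

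Summed over the 10 genes, the reads scaled to library depth (CPM) were 30.9, 25.3 and 27.3 in mutant anthers, against 34.6, 33.7 and 33.4 in wild-type anthers. The mean was 27.8 ± 2.8 CPM in mutant anthers and 33.9 ± 0.62 CPM in wild-type anthers (SD, n = 3 each), and the groups did not overlap. After median-of-ratios scaling the sums were 32.8, 29.6 and 29.3 in mutant anthers, against 34.0, 30.8 and 27.8 in wild-type anthers, which overlap. The 4 regulators took 60.0%, 46.4% and 40.5% of these reads in mutant anthers, against 46.7%, 43.0% and 42.3% in wild-type anthers. The high share in mutant replicate 1 went with the 175 reads of ms23 in that library.

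**Figure D4:**
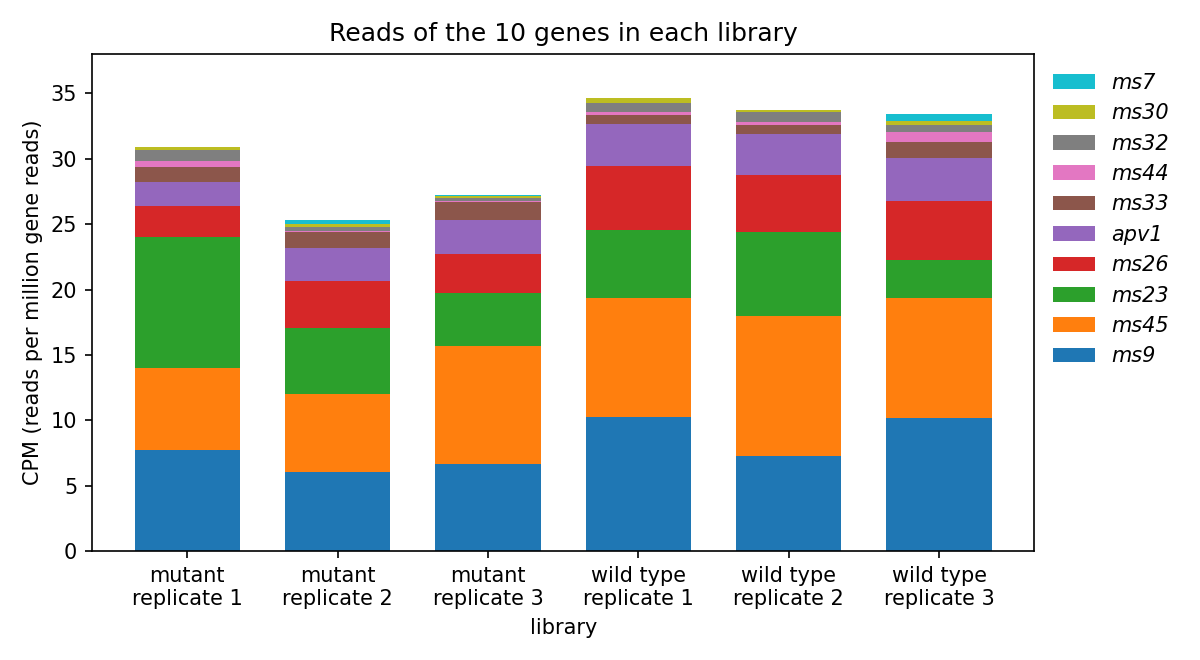
CPM, reads scaled to the reads counted on genes, of the 10 genes, stacked by gene, in each library, with the mutant libraries on the left. The stacks reach 25.3 to 30.9 CPM in mutant libraries and 33.4 to 34.6 CPM in wild-type libraries, and the ms9, ms45 and ms23 segments make up most of each.

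Among the other 18983 genes tested on FPKM, the one whose log2(FPKM + 1) followed ms9 most closely over the 6 libraries was Zm00001d015705 (chromosome 5, 109791492 to 109802417). It had 3.17, 1.82 and 2.52 FPKM in mutant anthers, against 5.61, 2.82 and 5.03 FPKM in wild-type anthers (Pearson's r = 0.992). For ms45 it was Zm00001d003683 (chromosome 2, 54203763 to 54206818), with 14.4, 13.4 and 18.6 FPKM in mutant anthers, against 18.5, 21.0 and 19.0 FPKM in wild-type anthers (r = 0.998). Both are the highest values of a search over all tested genes with 6 libraries, and part of each likeness is the difference between genotypes that both genes share, so they are given as a description only.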

How the data were processed

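RNA of mature anthers was sequenced in 3 mutant and 3 wild-type libraries, grouped by the genotype label. The authors deposited 1 FPKM value per gene and library. Per the submitters' processing notes, HISAT2 2.1.0, Bowtie2 2.2.3, HTSeq 0.6.0 and the build B73 RefGen_v4 were used; roles, annotation release and strand setting are not given in the sources available for this work. Reads of near-identical gene copies are therefore uncertain.

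Each library total was taken as the whole number most frequent over genes when reads were treated as counted over the whole gene span. Whole reads then came from the smallest whole-number gene length giving whole reads in all 6 libraries (tolerance 0.0001 reads plus 3e-09 per read). This solved 31465 of 31470 genes, and among 2000 random genes the share was 100%, and 1.95% once values were perturbed. Where all reads of a gene share a divisor with its length, the recovered reads may be too low by that divisor.

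The genotype test was limma (version 3.58.1, R version 4.3.3) with an intensity trend, applied to log2(FPKM + 1), two-sided, with Benjamini-Hochberg adjustment over all genes tested, called at 0.05. Limma-voom was run on recovered reads. Both were tested on simulated reads with changes in a small part of the genes and no general shift between genotypes. That simulation thus does not cover how the results depend on scaling. Alternatives were other scalings, filters and a pseudocount of 0.1, leaving out each library, and the replicate number as a block.

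The members, lists and tests were chosen with earlier results of these data known. Named genes are all members and, for the 2 most abundant, the most alike gene. Of 21 other tapetum symbols and 11 pollen or anther wall markers listed, 0 could be tied to an identifier of the files, so neither list was analysed here and the tissue label was not checked on markers. No sequences of these genes were used here.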

Additional observations from a re-analysis of the deposited data

How the results depend on the processing

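The count of 0 members called with limma on FPKM was also 0 with median-of-ratios and upper-quartile scaling, no filter, a pseudocount of 0.1, limma-voom, each library left out and the replicate block (0 members). That with limma-voom on reads was also 0 with median-of-ratios scaling, no filter, a filter of 20 reads, each library left out and the replicate block (0 members). Over these settings 0.263% to 7.4% of all genes were called on FPKM and 0.291% to 8.01% on reads, with the lowest shares when mutant replicate 1 (0.284% and 0.596%) or 2 (0.263% and 0.291%) was left out, so a count of 0 among so few members is near the background and says nothing about stability. Deviations of libraries sharing a replicate number correlated at 0.01, -0.38 and -0.33, which gives no pairing, and the block fit left every member uncalled. Settings on reads other than voom with the FPKM filter, the separations and the summed reads were chosen after seeing the data. At 0.5 FPKM in place of 1, 7 members passed in wild type, and at 5 FPKM, 1 passed in the mutant and 2 in wild type. Members separated downward numbered 0 in place of 3 with either other scaling, and 3 to 6 without 1 library, where 25.8% to 31.1% of all listed genes separated. There were 6 when mutant replicate 1 was left out (29.0% of listed genes) and 5 when wild-type replicate 2 was (29.2%), and fewer libraries make separation easier. Members separated upward numbered 1 in place of 0 with either other scaling, and 0 to 1 without 1 library, where 7.18% to 10.5% of all listed genes separated. The summed reads differed by -6.1 CPM, -0.321 with median-of-ratios scaling, and -7.64 to -4.85 without 1 library. The log2 fold change of ms23 turned to -0.028 without mutant replicate 1 (range -0.028 to 0.49 without 1 library), and the ms44 read ratio moved to 0.147 without it. The cause was not tested. The other 95 alternative values of single genes did not change sign or call, or stayed within the counting interval. Depth limits ms7, ms30 and ms44 most, with 16, 24 and 29 reads over all libraries.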
